A study of Mus musculus with 10 samples.

Results

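The genes of 8 subunits of the NADPH oxidases, the enzymes that make superoxide and hydrogen peroxide, were followed in mouse pancreatic islets at ZT8 and ZT20. They were Cybb, Cyba, Ncf1, Ncf4, Rac2, Nox1, Nox4 and Duox2. Members were picked by gene symbol as oxidase subunits, with the difference of Cybb between these same arrays already known. Each gene had 1 row of the table that named it alone, so 8 of the 32814 rows that name a gene are described here. Islets came from male mice of the C57BL/6 strain aged 10 weeks (C57Bl/6J in the methods), 5 samples at ZT8 and 5 at ZT20, with 1 array per sample and no transgene or drug in either group. Titles write the times as CT8 and CT20. All mice were killed at the same clock time and the islets were handpicked and cultured for 24 h in the methods, or overnight in another label. The ZT8 mice lived under a normal and the ZT20 mice under an inverted light cycle, so time of day and housing cannot be told apart. Titles call the samples biological replicates, and the heading of a supplementary list gives 5 animals per genotype, read here as per group. The methods place an acclimatization period between the stated age and killing, so the age at sampling is not settled.

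An NADPH oxidase carries electrons from NADPH across a membrane to oxygen. In phagocytes the catalytic chain gp91phox (also called NOX2, gene Cybb) forms a membrane heterodimer, cytochrome b558, with p22phox (gene Cyba). It stays silent until cytosolic subunits, among them p47phox (Ncf1), p40phox (Ncf4) and the GTPase Rac2, move to it, and its superoxide helps to kill engulfed microbes. NOX1, NOX4 and DUOX2 are catalytic paralogs of gp91phox in epithelial and other non-phagocytic cells, NOX4 being active without the cytosolic subunits and DUOX2 releasing hydrogen peroxide. An islet holds resident macrophages beside its hormone cells, and whole islets were extracted here. In such bulk RNA, fewer cells of a type and less RNA per cell cannot be told apart.

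Signals are on a log2 scale, as normalized by the authors, and a difference is ZT8 minus ZT20, so that a negative value means a lower signal at ZT8. The level of one row was not set against that of another, since probes differ in brightness. Pearson correlations between arrays over the transcript rows lay between 0.990 and 0.997. On the ZT8 arrays 23 background control rows averaged between 4.07 and 4.20, and on the ZT20 arrays between 4.24 and 4.33, with no overlap. As markers of the labelled tissue, the hormone genes Ins2 and Ppy had group means of 13.18 and 13.32 at ZT8 and of 13.19 and 13.34 at ZT20. Genes of digestive acinar cells were also bright, Ctrb1 at 13.48 ± 0.18 (SD, n = 5) at ZT8 and 13.45 ± 0.14 at ZT20 and Cela1 at 12.76 ± 0.53 and 12.62 ± 0.49. Limma called 244 of the 32814 rows at an adjusted p under 0.05 (Benjamini-Hochberg over all of them), which is 0.744%.

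Cybb and Cyba encode both chains of one heterodimer, and the 250 bases upstream of their annotated start sites are shown to set this pair side by side (RefSeq, GRCm38.p6, 5′ to 3′ on the gene's strand). The Cybb window is chrX:9469325-9469574 and the Cyba window chr8:122432941-122433190, both on the minus strand. The Cybb window lies inside the annotated span of the gene (chrX:9435252-9487766) and the Cyba window next to that of Cyba (chr8:122424771-122432940). The other members lie at chr5:134220053-134229628 (Ncf1), chr15:78244164-78262582 (Ncf4), chr15:78559169-78572783 (Rac2), chrX:134086421-134137711 (Nox1), chr7:87244430-87398710 (Nox4) and chr2:122279246-122298740 (Duox2). Capitals mark any match, on either strand, to GAGGAA (one form of the site bound by ETS factors) or to the promoter box CCAAT. They also mark any match to the E-box of the clock activators, CACGTG, or to the core recognised by many nuclear receptors, AGGTCA. Shorter forms of these sites, such as GGAA for ETS factors, were not searched.
Cybb: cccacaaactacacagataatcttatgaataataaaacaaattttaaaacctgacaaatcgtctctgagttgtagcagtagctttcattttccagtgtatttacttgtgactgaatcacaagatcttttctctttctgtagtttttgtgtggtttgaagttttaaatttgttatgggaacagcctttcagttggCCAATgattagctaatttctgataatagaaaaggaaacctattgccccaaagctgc
Cyba: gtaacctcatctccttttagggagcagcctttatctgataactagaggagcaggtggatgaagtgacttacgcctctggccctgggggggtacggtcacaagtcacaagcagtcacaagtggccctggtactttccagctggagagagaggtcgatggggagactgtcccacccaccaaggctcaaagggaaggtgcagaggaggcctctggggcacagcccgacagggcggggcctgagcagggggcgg

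The Cybb window held 1 of these motifs, a CCAAT starting 56 bases before the start site, and the Cyba window held none. Of 32851 windows of this length in the RefSeq table, 33.8% held CCAAT on either strand. GAGGAA was held by 23.3%, the nuclear receptor core by 14.0% and the E-box by 6.02%. The windows differed in composition, with 34.0% G plus C in Cybb and 60.0% in Cyba, against a median of 52.4% over all windows. Of the other members with a window, Nox1 held a GAGGAA starting 23 bases before the start, Duox2 a CCAAT on the other strand, and Ncf1 and Nox4 no match. These are letters in a window and do not show a bound site.

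Cybb, the catalytic chain of the phagocyte oxidase, had the lowest signal on ZT8 replicates 3 and 5 and the highest on ZT20 replicate 4. Its signals on ZT8 replicates 1 to 5 were 5.79, 5.87, 5.65, 6.01 and 5.66. On ZT20 replicates 1 to 5 they were 5.74, 6.21, 6.21, 6.33 and 6.08. Of the ZT20 arrays 4 lay above all ZT8 arrays, while ZT20 replicate 1 lay within the ZT8 range, so the groups overlapped through that array. The ZT8 mean was 5.80 ± 0.15 (SD, n = 5) and the ZT20 mean 6.11 ± 0.23, which differ by -0.32, or a signal 1.25-fold higher at ZT20. Because Cybb stood out in this contrast when the members were picked, its difference is given as a description without a test. Without ZT20 replicate 1 the difference was -0.41 and the groups no longer overlapped, and without any other single array it lay between -0.26 and -0.37.

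Cyba, whose product p22phox stabilises gp91phox and some of its paralogs in the membrane, had signals of 8.68, 8.25, 8.29, 8.36 and 8.48 on ZT8 replicates 1 to 5. On ZT20 replicates 1 to 5 its signals were 8.31, 8.50, 8.74, 8.85 and 8.47. The groups overlapped widely, with ZT8 replicate 1 above 3 of the ZT20 arrays. Averages of 8.41 ± 0.17 (SD, n = 5) and 8.57 ± 0.22 differed by -0.16 (95% interval from -0.39 to 0.07, limma adjusted p = 0.425). ZT20 replicate 1 was the lowest array of its group for Cyba as for Cybb, and ZT20 replicate 4 the highest for both.

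**Figure D1:**
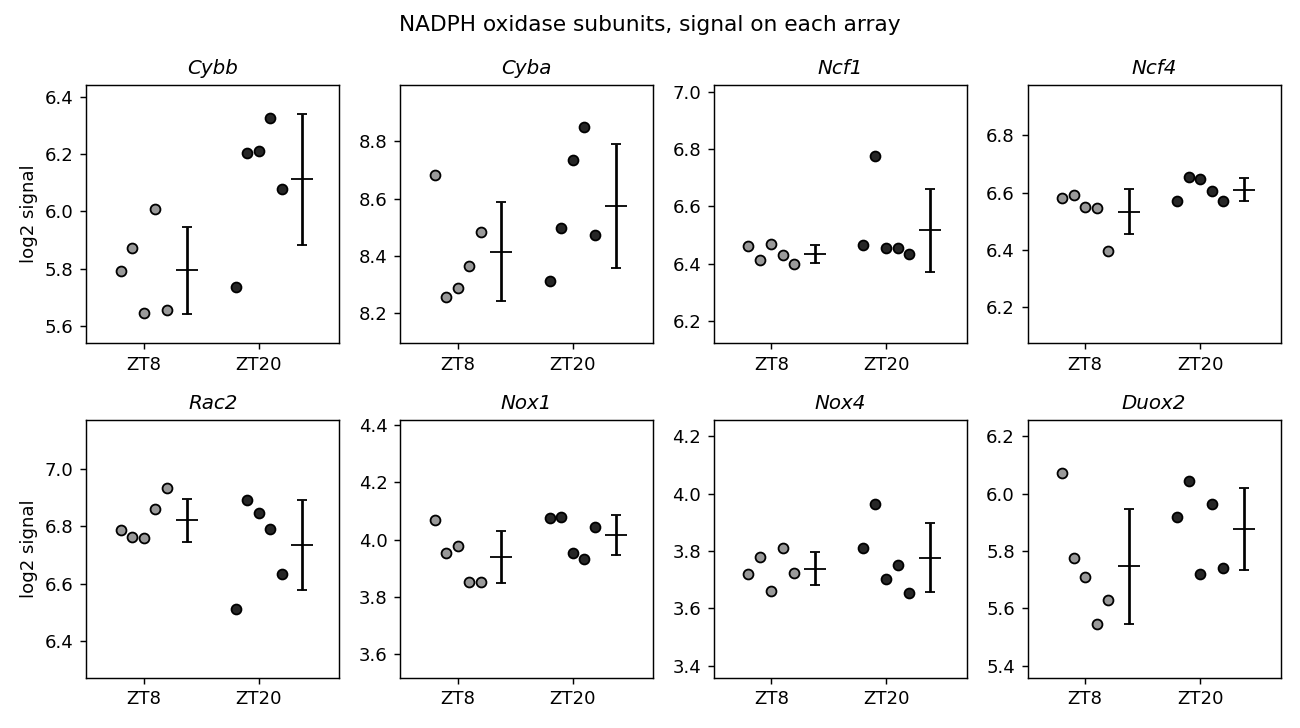
Log2 signal (vertical axis) of the 8 NADPH oxidase subunit genes on each of 5 ZT8 arrays (grey) and 5 ZT20 arrays (black), with replicates 1 to 5 from left to right in each group and all panels spanning the same number of log2 units. The bar beside each group is its mean ± SD; in Cybb 4 of the 5 ZT20 points lie above the ZT8 points, while in the other 7 genes the groups overlap more widely.

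Among the cytosolic subunits, none was called. Ncf1, whose product p47phox organises the assembly of the enzyme, had signals of 6.46, 6.41, 6.47, 6.43 and 6.40 on ZT8 replicates 1 to 5. On ZT20 replicates 1 to 5 they were 6.46, 6.78, 6.45, 6.45 and 6.43. The ZT20 arrays other than replicate 2 lay within the ZT8 range, and the difference of -0.08 (95% interval from -0.22 to 0.06, limma adjusted p = 0.500) became -0.02 without replicate 2 of ZT20. Ncf4, whose product p40phox binds a membrane phosphoinositide, lay at 6.58, 6.59, 6.55, 6.55 and 6.40 on ZT8 replicates 1 to 5. Its signals on ZT20 replicates 1 to 5 were 6.57, 6.65, 6.65, 6.61 and 6.57. Here 3 of the ZT20 arrays lay above every ZT8 array, with a difference of -0.08 (95% interval from -0.18 to 0.03, limma adjusted p = 0.417), and -0.04 without ZT8 replicate 5. Rac2, the Rac GTPase of blood cells, was the only member with a higher mean at ZT8 in the deposited values (after centring or quantile normalization Nox4 joined it). It had signals of 6.79, 6.76, 6.76, 6.86 and 6.93 on ZT8 replicates 1 to 5 and of 6.51, 6.89, 6.85, 6.79 and 6.63 on ZT20 replicates 1 to 5. The difference was 0.09 (95% interval from -0.07 to 0.24, limma adjusted p = 0.531). ZT20 replicates 1 and 5 lay below all ZT8 arrays while the other 3 ZT20 arrays lay within the ZT8 range, and the difference was 0.03 without ZT20 replicate 1.

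Of the catalytic paralogs, Nox1 and Nox4 had signals near those of the background control rows. Nox1, the oxidase of colon epithelium, lay between 3.85 and 4.07 at ZT8 (median 3.95) and between 3.93 and 4.08 at ZT20 (median 4.05), with a difference of -0.08 (95% interval from -0.20 to 0.04, limma adjusted p = 0.463). Nox4, the oxidase first described in kidney, lay between 3.66 and 3.81 at ZT8 (median 3.73) and between 3.65 and 3.96 at ZT20 (median 3.75). Its difference of -0.04 (95% interval from -0.17 to 0.09, limma adjusted p = 0.760) changed sign without ZT20 replicate 2 (0.01), and also with arrays centred on their medians (0.01) or quantile normalized (0.03). On every array both genes lay below the mean of that array's background control rows, though above the median of these rows over all arrays, 3.50, and no level of expression was read from them. Duox2, the peroxide-releasing oxidase of thyroid and mucosal epithelium, had signals of 6.07, 5.77, 5.71, 5.54 and 5.63 on ZT8 replicates 1 to 5. On ZT20 replicates 1 to 5 it had 5.92, 6.05, 5.72, 5.96 and 5.74. The highest Duox2 signal of all was on ZT8 replicate 1, and the difference was -0.13 (95% interval from -0.34 to 0.08, limma adjusted p = 0.467), or -0.21 without that array.

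Apart from Cybb, 0 of 7 members were called by limma, against 0.744% of all rows, and 0 of 7 by the methods' t-test (unequal variances). None of the 7 reached an unadjusted p under 0.05 by either test, while limma placed 10.2% of all rows there with a lower and 8.37% with a higher signal at ZT8. The share of all rows that the methods' t-test placed there is not given here. In 0 of 8 members were the arrays of both groups fully separated, against 5.92% of all rows. Of the 7 members other than Cybb 6 had a negative difference, and of these Nox4 turned positive with arrays centred on their medians or quantile normalized. The median over these 7 members was -0.08, with 61.9% negative and a median of -0.03 over all rows. The share of negative differences went with signal level. Among 5 classes of rows of equal size by mean signal, in the middle class (5.62 to 6.89), which holds Cybb, Ncf1, Ncf4, Rac2 and Duox2, 71.1% were negative with a median of -0.06. In the dimmest class, which holds Nox1 and Nox4, 81.6% were negative with a median of -0.07, and in the brightest class, which holds Cyba, 29.0% were negative with a median of 0.05. The background control rows moved the same way as the dim rows, and their part in these differences was not tested. After centring, Cybb and Cyba lay at -0.27 and -0.11, and after quantile normalization at -0.27 and -0.19. The intervals of the other 7 members leave room for changes of the size seen in Cybb only for Cyba and Duox2, whose lower bounds were -0.39 and -0.34.

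**Figure D2:**
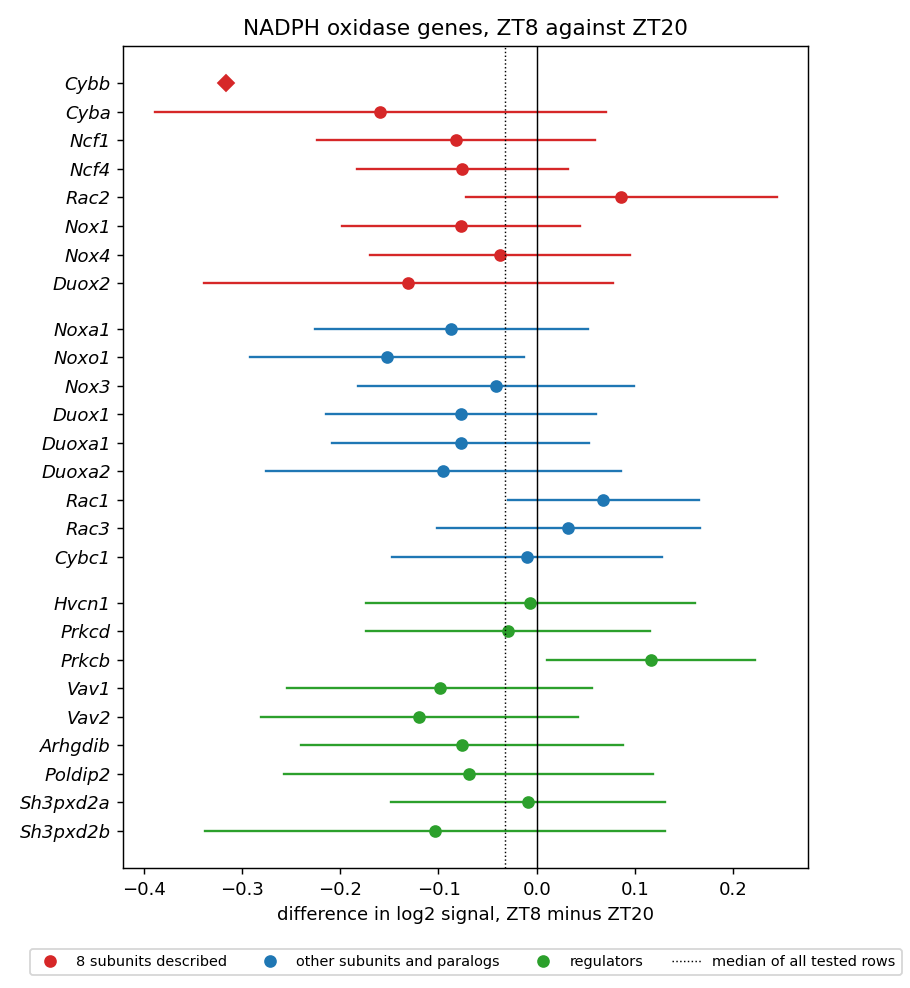
Difference in log2 signal between ZT8 and ZT20 (horizontal axis, ZT8 minus ZT20) for the 8 subunits (red), 9 other subunits and paralogs (blue) and 9 regulators (green), with bars for the 95% confidence interval from limma and a dotted line at the median of all tested rows. Cybb (diamond, -0.32) has no interval because it was not tested, and of the other intervals only those of Noxo1 and Prkcb lie off 0.

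The rest of the pathway was taken from lists of 10 further subunits, maturation factors and paralogs, of which 9 had a row, and of 12 regulators, of which 9 had a row. None of these 18 genes was called by limma or by the methods' t-test, and by either test 2 reached an unadjusted p under 0.05, 1 in each direction. Over all rows limma called 0.744% and placed 10.2% lower and 8.37% higher at ZT8 at that unadjusted p. The methods' t-test called 2 of the 32814 rows, and its share at the unadjusted p is not given here. Noxo1, which encodes the organiser that replaces p47phox in the NOX1 enzyme, averaged 6.74 ± 0.09 (SD, n = 5) at ZT8 against 6.89 ± 0.11 at ZT20, differing by -0.15 (95% interval from -0.29 to -0.01, limma adjusted p = 0.236). Prkcb, a protein kinase C that phosphorylates p47phox, had a difference of 0.12 (95% interval from 0.01 to 0.22, limma adjusted p = 0.234). Rac1, the Rac GTPase found in most cells, had means of 10.36 ± 0.04 (SD, n = 5) and 10.30 ± 0.05. Its difference of 0.07 (95% interval from -0.03 to 0.16) turned to -0.02 after quantile normalization. Duox1, the paralog of Duox2, had a difference of -0.08 (95% interval from -0.21 to 0.06). The median was -0.08 over the 9 further subunits, 7 of them negative, and -0.07 over the 9 regulators, 8 of them negative. Cybc1, whose product is needed for gp91phox to mature, lay at -0.01, and Hvcn1, a proton channel that balances the charge moved by the oxidase, also at -0.01. Arhgdia, Pak1 and Prdx6 were not analysed here.

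Leukocyte genes were examined as 4 lists, since Cybb, Ncf1, Ncf4 and Rac2 are themselves leukocyte genes. Of 51 listed genes 50 had a row, none of them was called by limma or by the methods' t-test, and 40 had a negative difference (34 with arrays centred, 36 after quantile normalization). At an unadjusted p under 0.05 limma placed 7 genes, each lower at ZT8, against 3 for the methods' t-test. For limma this is 7 of 50 against the 10.2% of all rows that lay lower at ZT8 in this way. No such share is given for the methods' t-test. The share called by limma over all rows was 0.744%. The median over the 50 genes was -0.08, or -0.04 with arrays centred and -0.05 after quantile normalization, beside -0.03 over all rows, or 0.02 and -0.01 in these scalings. The largest single difference in these lists, -0.26 in the Fc receptor gene Fcgr1, was smaller in size than that of Cybb. Because Cybb was picked for its difference, this order was largely given in advance and is no test. The limma interval of Fcgr1 ran from -0.54 to 0.02 and left room for a difference of the size seen in Cybb.

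Of the 9 pan-leukocyte genes 8 were negative, with a median of -0.09 and no unadjusted p under 0.05. Ptprc, which encodes the common leukocyte antigen CD45, averaged 5.45 ± 0.15 (SD, n = 5) at ZT8 against 5.53 ± 0.18 at ZT20. Hcls1 and Lcp1, cytoskeletal proteins of blood cells, had differences of -0.03 and -0.15. Of the 22 macrophage and monocyte genes 17 were negative, with a median of -0.09. C1qa, a chain of complement C1q, had a difference of -0.23 (95% interval from -0.43 to -0.03, limma adjusted p = 0.221). Spi1, which encodes the myeloid transcription factor PU.1, had a difference of -0.17 (95% interval from -0.30 to -0.03, limma adjusted p = 0.189), and its ZT20 arrays overlapped the ZT8 arrays only through replicate 1. The macrophage receptor gene Csf1r differed by -0.21 (95% interval from -0.44 to 0.01), the lysosomal gene Cd68 by -0.16 and the integrin gene Itgam by -0.13. The macrophage marker Adgre1, at -0.05, and the lysozyme gene Lyz2, at 0.07, changed sign when single arrays were left out. The median of this list moved from -0.09 to -0.01 without ZT20 replicate 3, to -0.05 without ZT20 replicate 2, to -0.16 without ZT20 replicate 1 and to -0.14 without ZT20 replicate 4. The per-array mean of these 22 genes ran from 6.76 to 6.91 at ZT8 and from 6.71 to 7.13 at ZT20, and ZT20 replicates 1 and 4 lay below every ZT8 array. Cybb was lowest within ZT20 on replicate 1 but highest on replicate 4, so on replicate 4 it did not go with the macrophage mean. On that array the genes of the list were split. Cd68, Fcgr1 and Spi1 lay above every ZT8 array, and others, Lyz2 among them, below every ZT8 array.

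**Figure D3:**
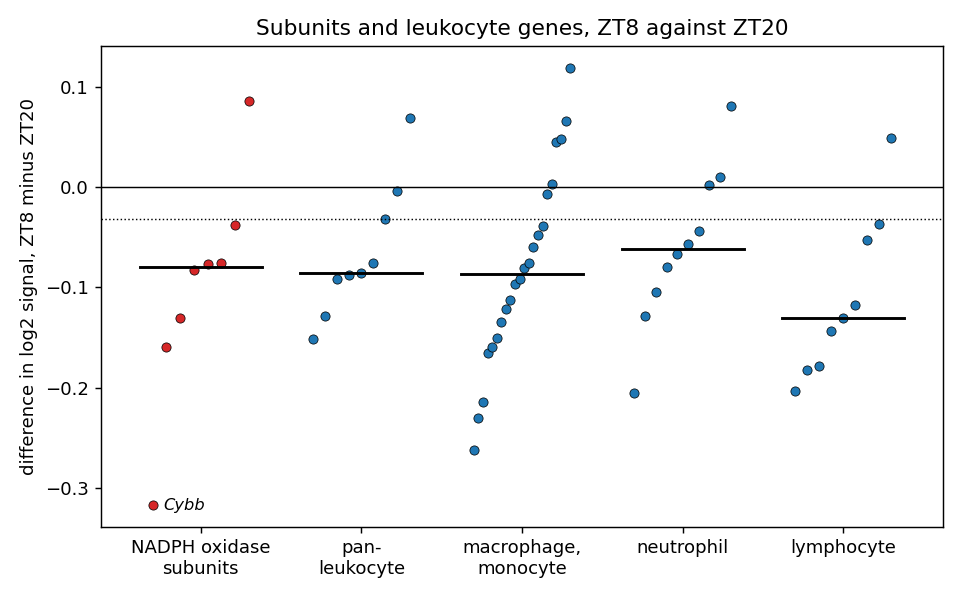
Difference in log2 signal between ZT8 and ZT20 (vertical axis, ZT8 minus ZT20) for each of the 8 NADPH oxidase subunit genes (red) and the 50 genes of the leukocyte lists (blue), with a thick bar for the median of each list and a dotted line for the median of all tested rows. Cybb, picked for its difference and included in the subunit median, lies below all other points at -0.32. The list medians lie between -0.06 and -0.13.

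Of 10 neutrophil genes 7 were negative with a median of -0.06, and 1 reached an unadjusted p under 0.05. This was Ngp, the gene of a neutrophil granule protein, with a difference of -0.20 (95% interval from -0.35 to -0.06, limma adjusted p = 0.138). The alarmin gene S100a8 lay at 3.14 ± 0.19 (SD, n = 5) at ZT8 and 3.20 ± 0.15 at ZT20, below the mean of the background control rows. Of 9 lymphocyte genes 8 were negative with a median of -0.13. The T-cell receptor complex genes Cd3d, Cd3e and Cd3g differed by -0.20, -0.14 and -0.13, and the B-cell receptor gene Cd79b by -0.18, each at an unadjusted p under 0.05 and with adjusted p from 0.216 to 0.264 by limma. In all these genes the groups overlapped. Per array, the list mean ran from 5.03 to 5.31 at ZT8 and from 5.13 to 5.29 at ZT20 for neutrophil genes, and from 5.20 to 5.37 and from 5.30 to 5.61 for lymphocyte genes.

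Whether the subunits went together from array to array was asked on deviations from the group means, which do not hold the contrast that picked Cybb. Deviations of Cybb over the 10 arrays were compared with those of the 7 other members and of the macrophage list mean, 8 relations in all, by exact permutation within groups (two-sided, Benjamini-Hochberg adjusted over the 8). None passed, and none had an unadjusted p under 0.05. The closest were Rac2 with Pearson's r = 0.643 (exact permutation p = 0.0804, adjusted p = 0.466; Spearman's rho = 0.564, exact p = 0.136) and Cyba with r = 0.511 (exact permutation p = 0.181, adjusted p = 0.466; rho = 0.624, exact p = 0.0806). Without ZT20 replicate 1 and ZT8 replicate 3, the arrays farthest from the median for Cybb, r was 0.151 for Rac2 and 0.09 for Cyba. Leaving out the arrays farthest in Cybb also narrows its range, and leaving out ZT20 replicate 1 alone gave 0.214 and 0.196, against 0.624 and 0.472 without ZT8 replicate 3 alone. Without ZT8 replicate 5, r for Rac2 was 0.83 (exact permutation p = 0.0118, adjusted p = 0.0944). Ncf4 had r = 0.485 (exact permutation p = 0.128, adjusted p = 0.466; rho = 0.345, exact p = 0.322), which was 0.594 without those arrays. The macrophage list mean had r = 0.463 (exact permutation p = 0.315, adjusted p = 0.503; rho = 0.406, exact p = 0.323), and 0.056 without them. It moved both ways with single ZT20 arrays, to 0.07 without replicate 1 and to 0.831 without replicate 4 (exact permutation p = 0.0101, adjusted p = 0.0806). For Ncf1, Nox1, Nox4 and Duox2 r was 0.148, -0.425, 0.187 and -0.047 (exact permutation p = 0.717, 0.233, 0.669 and 0.891; rho = -0.103, -0.442, 0.224 and -0.091).

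**Figure D4:**
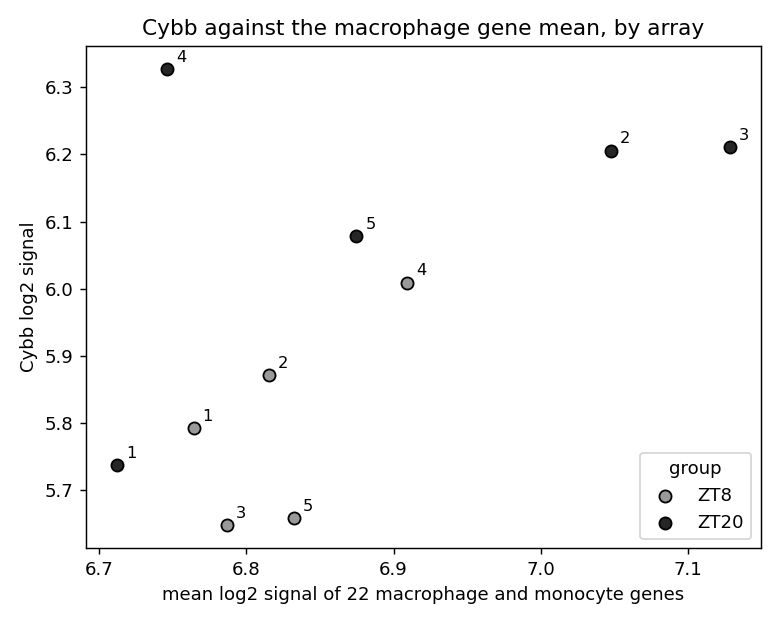
Cybb log2 signal (vertical axis) against the mean log2 signal of 22 macrophage and monocyte genes (horizontal axis) on the 5 ZT8 arrays (grey) and 5 ZT20 arrays (black), with replicate numbers beside the points. ZT20 replicate 1 is low on both axes, while ZT20 replicate 4 has the highest Cybb signal, 6.33, at a low macrophage mean, 6.75.

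Over 15472 other genes with a mean above the median row, the deviations most like those of Cybb over the 10 arrays were those of Brap, Tmx1, C3ar1, Gm6039 and Ostm1, with Pearson's r of 0.951, 0.904, 0.891, 0.876 and 0.875. These are the top of a long ranking over arrays that share preparation and normalization, and are given as a description. Of the 5, C3ar1, the receptor for complement fragment C3a on myeloid cells, also had a difference close to that of Cybb in size. Its means were 6.45 at ZT8 and 6.76 at ZT20, differing by -0.31 (SE 0.11, limma adjusted p = 0.176). Without ZT20 replicate 1 the difference was -0.42 and called (limma adjusted p = 0.0402), as were 427 of all 32814 rows. That array was among the farthest for Cybb, whose deviations picked C3ar1, so this call is no separate evidence. Tmx1, a thioredoxin-related protein of the endoplasmic reticulum, Brap, a protein that binds BRCA1, and the predicted gene Gm6039 differed by 0.04, -0.01 and -0.05, and Ostm1, a lysosomal membrane protein, by -0.11. Over the 75 other members, further oxidase genes and leukocyte genes with a row, of any level, the highest r with Cybb were 0.804 for Lcp1, 0.693 for Cybc1, 0.682 for the leukocyte tetraspanin gene Cd53, 0.664 for Spi1 and 0.643 for Rac2. All of these but Cd53 were among the 15472 genes, where Lcp1, Spi1 and Rac2 stood at ranks 35, 219 and 268. Cybc1 lay between Lcp1 and Spi1 there by its r.

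Other cells of the islet preparation can hold the non-phagocytic subunits, and their markers were read beside these. Of 5 endothelial genes all were negative, with a median of -0.07, and Cdh5 and Kdr, an adhesion molecule and a growth factor receptor of vessels, differed by -0.07 and -0.15. Of 5 stellate cell and fibroblast genes all were negative, with a median of -0.17, Pdgfrb and Col1a1 at -0.14 and -0.19. Duct genes were measured for 3 of 5, with Krt19 at 0.30 (95% interval from -0.52 to 1.12) and Sox9 at -0.0044. Of 3 erythroid genes all were negative, with a median of -0.11, Alas2 at -0.15 and Slc4a1 at -0.08. Of 4 acinar genes 3 were positive, with a median of 0.08. With the islet hormone cell list these lists held 29 measured genes, and none was called by limma or by the methods' t-test. At an unadjusted p under 0.05 limma placed 4, each lower at ZT8, namely the endothelial receptor gene Tie1 (-0.23), the collagen genes Col3a1 (-0.20) and Col1a1, and Alas2, while the methods' t-test placed 2 lower and 1 higher. Over all rows limma called 0.744% and placed 10.2% lower and 8.37% higher at ZT8 at that unadjusted p. No such share is given for the methods' t-test. The part of these other cells in the differences of Nox4 and Duox2 was not tested. The number of arrays, 5 per group, and the spread between them limit the precision of all these values.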

How the data were processed

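The deposited values are log2 signals per transcript cluster from 1-colour Affymetrix arrays, 1 per islet sample, normalized by the authors (GCRMA per a supplementary table heading, with Affymetrix Expression Console named in the submitters' processing notes). No source used here gives its version or the genome build. The study's methods name an older 3' expression array, whereas the deposited rows are transcript clusters of a mouse transcriptome array, so how far the stated processing applies to them is not settled. The table had 72688 rows, 6732 of them controls and 65956 for transcripts. The array annotation names a gene for 32814 transcript rows and exactly 1 gene for 31329, counting an older symbol printed beside the current one as the same gene. A gene was read from the row that names it alone with the highest mean over 10 arrays.

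Values were used as deposited, with no filter on dim rows. The groups were compared two-sided by lmFit and eBayes of limma 3.58.1 under R 4.3.3, with Benjamini-Hochberg adjustment over the 32814 rows and a threshold of 0.05. The methods' t-test (two-tailed, for unequal variances per the heading of a supplementary list) was run on the same values. Intervals are at 95% for a single gene and unadjusted. Correlations used deviations from group means and exact permutation within groups. The fits were tested on simulated data.

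The members and the gene lists were chosen with earlier results of these data known. Genes are named if they are members, lie in the oxidase lists, are defining leukocyte markers, have an unadjusted p under 0.05 in a leukocyte list or else the highest means there and in other cell type lists, or are closest to Cybb. Fcgr1, S100a8, Cybc1, Hvcn1, Cd53, Tie1, Col3a1 and genes with an array far from the others were named after their values were seen. Alternatives were centring, quantile normalization, a filter on dim rows, other sets of rows, the replicate number as a block, other variance priors and weights, a 1.3-fold rule, the methods' t-test, a gene's mean row, Spearman's rho and each array left out. Upstream sequences are from RefSeq tables (GRCm38.p6), which held 6 of the 8 members. The other tools were matplotlib 3.10.9 for figures, and scipy 1.17.1, pandas 2.3.3 and numpy 2.4.6 under Python 3.11.15 for tables.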

Additional observations from a re-analysis of the deposited data

Results flagged for a closer look

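In 12 of 244 groups of 5 arrays (110 genes and 12 list means, each at both times), 1 array lay far from the other 4 by Dixon's criterion (a gap over 0.71 of the group's range), and chance gives about 1 in 20. Among the members, Ncf1 stood at 6.78 on ZT20 replicate 2 against 6.43 to 6.46 on the other ZT20 arrays, and Ncf4 at 6.40 on ZT8 replicate 5 against 6.55 to 6.59. Among the other oxidase genes, Rac3 stood at 6.86 on ZT8 replicate 2 against 6.98 to 6.99, and on ZT8 replicate 1 Prkcd stood at 7.83 against 7.51 to 7.59 and Sh3pxd2b at 7.12 against 6.58 to 6.72. Among the leukocyte genes, Cd14 stood at 7.91 on ZT8 replicate 1 against 6.86 to 7.04. Ngp stood at 5.28 on ZT20 replicate 2 against 4.96 to 5.05, Cd3g at 4.93 on ZT8 replicate 2 against 4.79 to 4.83 and Ncr1 at 4.68 on ZT8 replicate 5 against 4.83 to 4.87. The duct gene Sox9 stood at 7.57 on ZT8 replicate 1 against 7.02 to 7.15. Of the islet genes, Nkx6-1 stood at 9.99 on ZT8 replicate 1 against 10.32 to 10.45, and Slc2a2 at 9.43 on ZT20 replicate 4 against 10.01 to 10.16. Of these values 5 were on ZT8 replicate 1. On ZT20 replicate 2 the signals of Ncf4, Rac2, Nox1, Nox4 and Duox2 were the highest of the ZT20 arrays, as was the mean of the background control rows, 4.33.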

How the results depend on the processing

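The count of 0 called among the 7 members other than Cybb, the 18 other oxidase genes and the 50 leukocyte genes was the same under every alternative run, as was the count of 0 among the 8 relations with Cybb. Cybb, Nox1, Nox4 and Duox2 lie below the median level and have no value among rows above it. The Cybb difference lay between -0.41 and -0.26 with 1 array left out. The 244 called rows became 603 with arrays centred, 55 after quantile normalization, 467 among rows above the median level, 1 with all transcript rows, 51 with the replicate number as a block, 516 with a trended and robust prior, 830 with array weights and 2 by the methods' t-test. Without 1 array they ranged from 1 to 427, the latter without ZT20 replicate 1, so the background share of calls is itself unsteady. Where so few rows were called in all, a count of 0 in these short lists was nearly given in advance. Of the called rows 76.2% were higher at ZT8, against 89.4% with arrays centred. No label ties samples of the same number together. Deviations of the pairs correlated from -0.13 to 0.35, and 6 of 10 arrays lay closest to their own number among the 5 arrays of the other group. Whether such samples shared a preparation was not tested. With the replicate block 0 of 7 members were called. The Cybb difference was again -0.32, which a block cannot change with 1 array per number in each group.

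Of 847 values of 43 single genes under the alternatives, 816 kept direction and side of the threshold. Alternatives that change only the rows tested, the block, the variance prior or the test leave the difference as it was, so its direction could not change there. With arrays centred, Nox4 (0.0101), Hcls1 (0.0156), Sox9 (0.0434), Ppy (0.0322), Ins2 (0.0320), Brap (0.0382) and Gm6039 (0.0027) changed sign. After quantile normalization Nox4 (0.0338), Sox9 (0.0177), Rac1 (-0.0220) and Tmx1 (-0.0349) did so. The cause was not tested. With 1 array left out, values that crossed 0 ran from -0.0688 to 0.0091 for Nox4, -0.102 to 0.0227 for Hcls1, -0.0911 to 0.0129 for Adgre1, -0.0630 to 0.188 for Lyz2, -0.185 to 0.0169 for Cdh5, -0.103 to 0.0343 for Sox9, -0.0122 to 0.104 for Ctrb1, -0.0261 to 0.328 for Cela1, -0.0330 to 0.0053 for Ins2 and -0.0301 to 0.0038 for Brap. C3ar1 passed only without ZT20 replicate 1 (adjusted p = 0.0402 from limma), the setting with 427 called rows. The list medians ran from -0.11 to -0.05 for pan-leukocyte, -0.16 to -0.0082 for macrophage and monocyte, -0.10 to -0.03 for neutrophil and -0.15 to -0.09 for lymphocyte genes. Nox1, Nox4 and S100a8 lay near the background signal, where a change would be hard to see.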
